A study of Arabidopsis thaliana with 4 samples.

Results

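Dimethylation of lysine 4 on histone H3 (H3K4me2) was profiled along 18 consecutive printing plates, TA plates 52 to 69, of a 2-colour tiling array of Arabidopsis thaliana. The 1728 probes of these plates, chosen by plate number from the 21728 probes with a value, made up 7.95% of the array. The plates were picked because their medians, on these same 4 arrays, lay between those of the low plates before them and of the plates after them, so their level and its rise are described here without a test. All 1728 probes had a value in both replicates, and no filter on low values was used.

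In plants H3K4me2 lies mainly over genes, where enzymes with a SET domain place it on nucleosomes near the start and along the body of the gene, and it is sparse over the silent, transposon-rich heterochromatin around centromeres. A passage between these kinds of chromatin can take the form of a uniform change of level or of a mosaic of marked islands in unmarked ground. The probes carried plate and well names only: 0 of the 1728 names matched a name in a table of 38312 genes (TAIR10.1), so none is tied here to a gene, a position or a sequence.

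The material was whole untreated seedlings of the Col-0 ecotype at an age of 10 days, grown in liquid medium. Chromatin precipitated with an antibody against H3K4me2 was hybridised with its own input DNA. The single group held replicates I and II, each hybridised in both dye orientations; no other antibody or genotype was present. Both columns of a dye swap held identical values (0 features differed), so each replicate gave 1 profile and n was 2. Nothing in the labels tied I and II to separate cultures. The p-values here rest on the differences between these 2 profiles, pooled over the probes of the array, and those differences may be technical. Each profile was centred on its median over all valued probes, and a level is given relative to that median probe in deposited log-ratio units. The log base is not stated, and it is not settled whether a positive value means more precipitate or more input. Higher and lower therefore refer to the deposited value and not to the amount of the mark.

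The level was low on average, and its rise with plate number was uneven. The median over the 1728 probes was -0.70 in replicate I and -0.69 in replicate II. Plates 52 to 59 showed no rise: their plate medians ran between -0.69 and -1.38, and the slope over these 8 plates was downward, at -0.040 per plate in I and -0.052 in II. The median then rose by 0.60 into plate 60, which was at -0.54 ± 0.03, and reached -0.29 ± 0.04 in plate 61 (SD, n = 2 each). It dropped back to -0.87 ± 0.12 in plate 62 and -0.94 ± 0.06 in plate 63 (SD, n = 2 each), levels within the range of plates 52 to 59. Over plates 60 to 69 as a whole the slope was upward, at 0.077 per plate in I and 0.068 in II. From plate 64 on the median stayed above every plate of 52 to 59. In all, 8 of the 10 plates from 60 to 69 exceeded every plate from 52 to 59 in both replicates, plates 62 and 63 being the exceptions.

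The lowest plate was 57, at -1.33 (I) and -1.43 (II), and the highest was 67, at 0.18 (I) and 0.09 (II). Plate 67 was the only one of the 18 with a mean median above the array median. At the borders, plate 52 was at -0.80 ± 0.05 just inside and plate 51 at -1.59 ± 0.07 just outside, while plate 69 was at -0.03 ± 0.02 just inside and plate 70 at 0.05 ± 0.02 just outside (SD, n = 2 each). The start thus coincided with a large jump and the end with almost none.

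A straight line through the 18 plate medians had a slope of 0.0592 per plate (I) and 0.0582 per plate (II), and Spearman's rho with plate number was 0.69 (I) and 0.74 (II). The line accounted for 54.6% of the variance of the mean plate medians, and a single step between plates 63 and 64, itself the best of all positions, for 58.7%, so these fits did not separate a steady rise from a step. The best step lay between plates 65 and 66 in replicate I and between plates 63 and 64 in replicate II, so the 2 replicates did not place it alike. Of the 17 changes from one plate to the next, 11 went up in replicate I and 9 in replicate II. Plates share neighbours and differ in content, so these values are descriptions. A sign-flip test over 2 replicates could not give an exact two-sided p below 0.5. Most of the variation lay within plates: only 17.2% of the variance of the 1728 probe means was between plates.

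**Figure D1:**
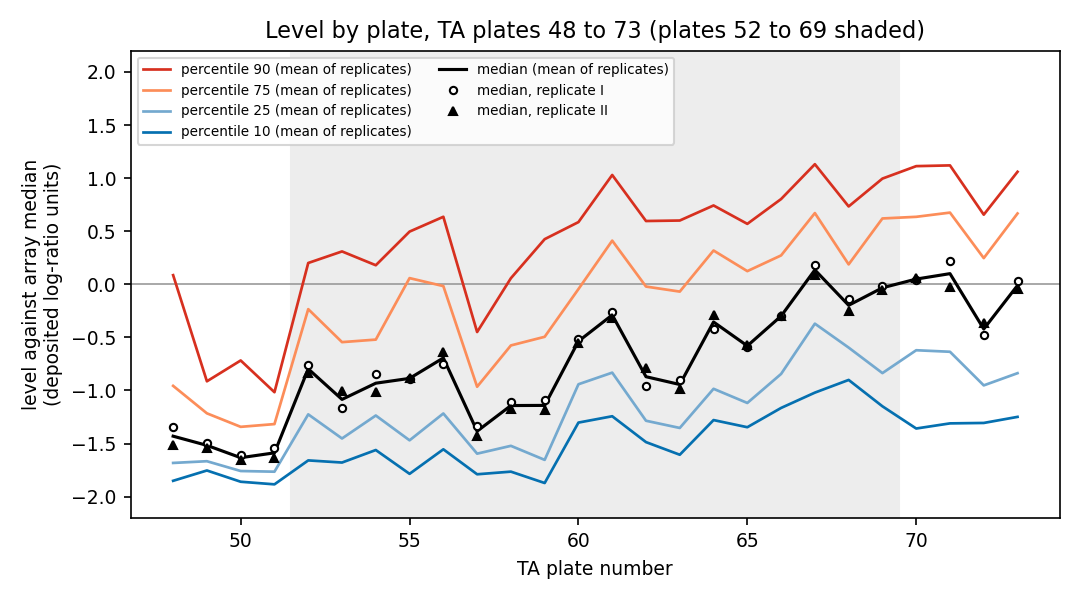
Level of TA plates 48 to 73 by plate number, in deposited log-ratio units against the array median. Open circles and filled triangles are the medians of replicates I and II, the black line is their mean, and coloured lines are the 10th, 25th, 75th and 90th percentiles of each plate averaged over replicates. Within the shaded plates 52 to 69 the median is low and without a rise up to plate 59, peaks at -0.29 in plate 61, falls back in plates 62 and 63 and reaches 0.14 in plate 67.

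The rise moved the whole distribution, though not by the same amount everywhere. Between plates 64 to 69 and plates 52 to 57 the median probe differed most, at -0.21 in plates 64 to 69 against -0.98 in plates 52 to 57, a difference of 0.78 ± 0.02 (SD, n = 2). The 10th percentile was -1.20 in plates 64 to 69 and -1.71 in plates 52 to 57, a difference of 0.51 ± 0.06 (SD, n = 2). The 90th percentile was 0.87 in plates 64 to 69 and 0.34 in plates 52 to 57, a difference of 0.53 ± 0.02 (SD, n = 2). Both ends therefore moved by about the same amount, and by less than the middle. Between them the change was not symmetric: the 25th percentile differed by 0.58 ± 0.03 and the 75th by 0.73 ± 0.04 (SD, n = 2 each). Over all 18 plates the slope per plate of the 75th percentile was 0.063 (I) and 0.057 (II). That of the median was 0.059 (I) and 0.058 (II). A pure shift would have given equal differences at all percentiles, whereas the middle exceeded both ends in each replicate.

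**Figure D2:**
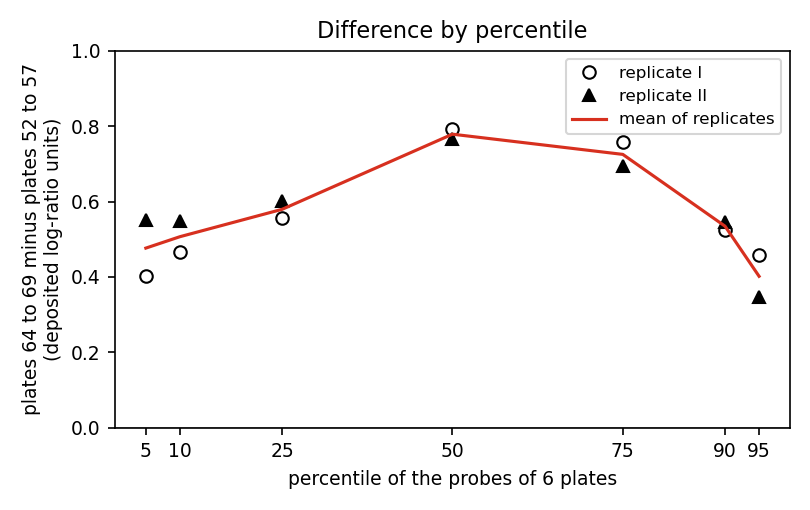
Difference between TA plates 64 to 69 and TA plates 52 to 57 at 7 percentiles of the probe levels, in deposited log-ratio units, for replicates I (open circles) and II (triangles) and their mean (line). All differences are above 0, and the largest is 0.78 at the median, against 0.48 at the 5th and 0.40 at the 95th percentile.

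By sets of 6 plates the upper and the lower end rose unevenly. In successive sets of 6 plates (52 to 57, 58 to 63 and 64 to 69) the 90th percentile was 0.34 ± 0.01, then 0.61 ± 0.03, then 0.87 ± 0.03 (SD, n = 2 each). The 10th percentile was -1.71 ± 0.09, then -1.65 ± 0.14, then -1.20 ± 0.03 (SD, n = 2 each), so its first difference lay within the spread between replicates. The high end thus moved across both intervals, and the low end beyond that spread across the second alone.

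The deepest values became rare. Probes under -1.5 made up 20.1% ± 4.3, then 15.6% ± 4.2, then 2.69% ± 0.61 of the 3 sets of plates (SD, n = 2 each), against 11.2% of all valued probes. In replicate I the shares were 17.0%, 12.7% and 2.26%, and in replicate II 23.1%, 18.6% and 3.13%. Plate 59 still held 33 such probes among its 96 by the mean of both replicates, and plates 68 and 69 held 0. Intermediate low values, between -1.5 and -0.5, made up 51.5% ± 3.8, then 46.0% ± 2.5, then 35.6% in both replicates (SD, n = 2 each). Values above 0.5 made up 7.73% ± 0.61, then 12.3% ± 0.98, then 20.9% ± 1.4 (SD, n = 2 each). The last of these shares was still under the 31.6% of all valued probes. A fixed limit in the tail empties under any upward shift, so these shares add to the percentiles and do not replace them. The limits of -1.5, -0.5 and 0.5 were set after the distributions had been seen.

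**Figure D3:**
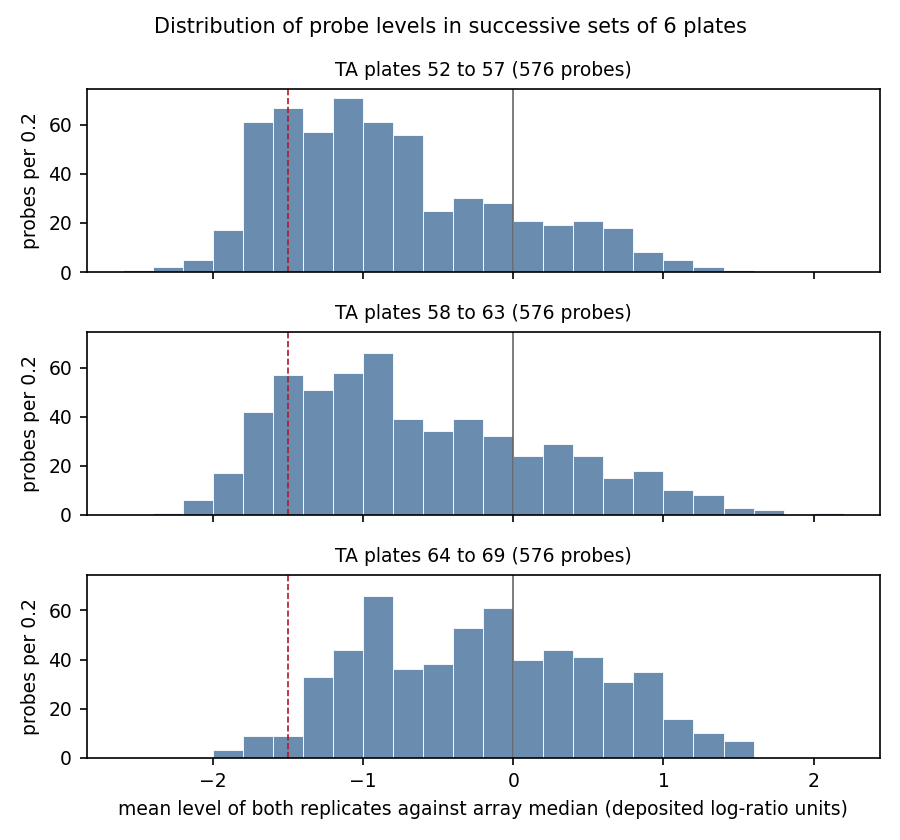
Numbers of probes by level (mean of both replicates, bins of 0.2, deposited log-ratio units against the array median) in TA plates 52 to 57, 58 to 63 and 64 to 69, with 576 probes in each panel. The dashed line marks -1.5: 120 probes lie under it in the first set of plates, 89 in the second and 17 in the third, while a heap of low probes near -0.9 is present in plates 64 to 69.

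Single probes were set against the array median with limma, fitted on all 21728 probes and with Benjamini-Hochberg adjustment at 0.05. The prior degrees of freedom were 116.9, so a probe's own difference between replicates counted for little in its call. TA53D05, for instance, was called lower at -0.93 (I) and 0.13 (II). In TA plates 52 to 69, 327 probes (18.9%) were higher, where 40.3% of all probes were, and 1098 (63.5%) were lower, where 40.2% of all probes were. Centred on the main mode of each replicate in place of its median, 87 of them were called higher and 1367 lower. The shares of all probes under that centre are not given here, so these counts are not to be set against 40.3% and 40.2%. The plates had been picked on these values, so nothing is read from the shares called higher or lower. Over the 3 successive sets of 576 probes, those called higher numbered 66, then 94, then 167, and those called lower 442, then 394, then 262.

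Wells read along plate rows showed how these probes were arranged, except on plate 68. Consecutive wells of the other 17 plates correlated across wells with r between 0.57 and 0.78 in replicate I and between 0.60 and 0.80 in replicate II. On plate 68 the same r was -0.03 in replicate I and -0.13 in replicate II, and for the mean profile it was the lowest of the 227 plates of the array with at least 60 probes. Wells 8 numbers apart on plate 68 correlated instead with r = 0.52 in replicate I and 0.61 in replicate II, the highest of the 227 plates for the mean profile, while the other 17 plates reached at most 0.18 and 0.24. In replicate II alone, plate 29 of the TC series went further, at -0.34 for consecutive wells and 0.68 for wells 8 apart. In replicate I that plate was at 0.51 and -0.09. Read in steps of 8 wells (wells 1, 9, 17 and so on, then 2, 10, 18), plate 68 gave r = 0.55 and 0.63 between successive probes. The step was chosen for the r of wells 8 apart and most of these pairs are the same, so both values restate it. Probes 2 places apart in that order correlated with r = 0.44 in replicate I and 0.42 in replicate II. Levels and shares do not depend on this order, but runs do, so runs are given with plate 68, without it and with it read in steps of 8.

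High islands became more frequent, while their change in length depended on plate 68. A run is an unbroken series of consecutive wells called higher. Plates 64 to 69 held 65 such runs against 24 in plates 52 to 57, or 10.8 against 4.0 per plate. Their mean length was 2.57 probes in plates 64 to 69 and 2.75 in plates 52 to 57. Plate 68 alone gave 22 runs of 1 probe each. Without it plates 64 to 69 held 8.6 runs per plate with a mean length of 3.37 probes, and with plate 68 read in steps of 8 they held 8.83 runs per plate with a mean length of 3.15. The number of runs per plate was thus 2.71 times that of plates 52 to 57 with all plates, 2.15 times without plate 68 and 2.21 times in steps of 8. The ratio of mean lengths was 0.93, 1.23 and 1.15 in the same order and changed side with the handling of this plate. The longest run was 10 probes in plates 64 to 69 and 9 in plates 52 to 57. Probes called higher were themselves 2.53 times as many in plates 64 to 69 as in plates 52 to 57. An upward shift also carries wells past the call limit, so run counts and lengths do not by themselves tell a shift from a mosaic.

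The level inside the islands was read in the replicate that had not defined them, over runs of at least 3 consecutive wells above 0.5 in the other replicate. With runs defined in replicate I, the mean level in replicate II was 0.80 over 17 runs in plates 64 to 69 and 0.86 over 6 runs in plates 52 to 57. With runs defined in replicate II, the mean level in replicate I was 0.81 over 16 runs in plates 64 to 69 and 0.63 over 6 runs in plates 52 to 57. The difference was 0.06 ± 0.17 (SD, n = 2) and had opposite signs in the 2 readings, so it had no common direction. The limit of 0.5 in a closely correlated replicate bounds this level from below, and a shift would also add new runs. With only 6 runs in plates 52 to 57, the reading shows neither a constant level nor a change, and it does not tell a shift from a mosaic. Every such run had a level above 0 in the other replicate, in all 3 sets of plates, which the limit of 0.5 made likely beforehand.

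Low stretches between the islands were shorter in the later plates. A shift that carries wells out of the lower class also shortens such stretches, so their length does not tell a shift from a mosaic. Over the 3 sets in order, the mean length of runs of probes called lower was 12.3 probes, then 7.88, then 3.64, or 4.47 in plates 64 to 69 without plate 68 and 4.37 with it read in steps of 8. Such runs numbered 36, then 50, then 72. Per plate they were 2.0 times as frequent in plates 64 to 69 as in plates 52 to 57. This ratio was 1.63 without plate 68 and 1.67 in steps of 8. With a limit of -0.5 in place of the call, the ratio was 1.22 in replicate I alone and 1.43 in replicate II alone. With that limit in both replicates the ratio was 1.09, so the greater number of low runs depended on how they were defined. The longest had 62, 36 and 16 probes. Low runs of at least 3 wells under -1, defined in replicate I and read in replicate II, were at -1.45, -1.44 and -1.34 in these sets, and in the reverse reading at -1.32, -1.35 and -1.20. The number of such runs was 32, 37 and 14 in the first reading and 33, 36 and 18 in the second.

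**Figure D4:**
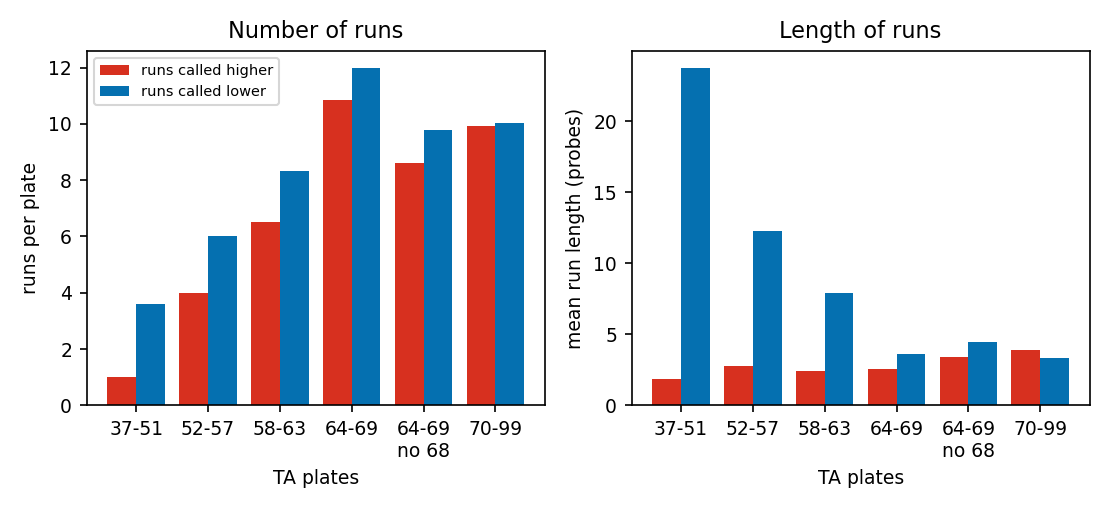
Runs of consecutive wells called higher (red) or lower (blue) than the array median with limma, as runs per plate (left) and mean run length in probes (right), in TA plates 37 to 51, in successive sets of plates from 52 to 69, in plates 64 to 69 without plate 68, and in plates 70 to 99. Runs called higher become more frequent, at 4.0, 6.5 and 10.8 per plate (8.6 without plate 68), while the mean length of runs called lower falls to 3.64 probes in plates 64 to 69, against 12.3 in plates 52 to 57.

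The change in mean level was also split by class. The mean was -0.21 in plates 64 to 69 and -0.83 in plates 52 to 57, a difference of 0.62 ± 0.01 (SD, n = 2). Of it, 71.5% ± 0.92 (SD, n = 2) went with different shares of probes called higher, lower and neither, and the remaining 28.5% with levels inside these classes. Lower probes averaged -0.90 in plates 64 to 69 against -1.18 in plates 52 to 57, and higher probes 0.74 against 0.67. A pure shift also carries probes from one class to the next, so the split does not by itself tell a shift from a mosaic.

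**Figure D5:**
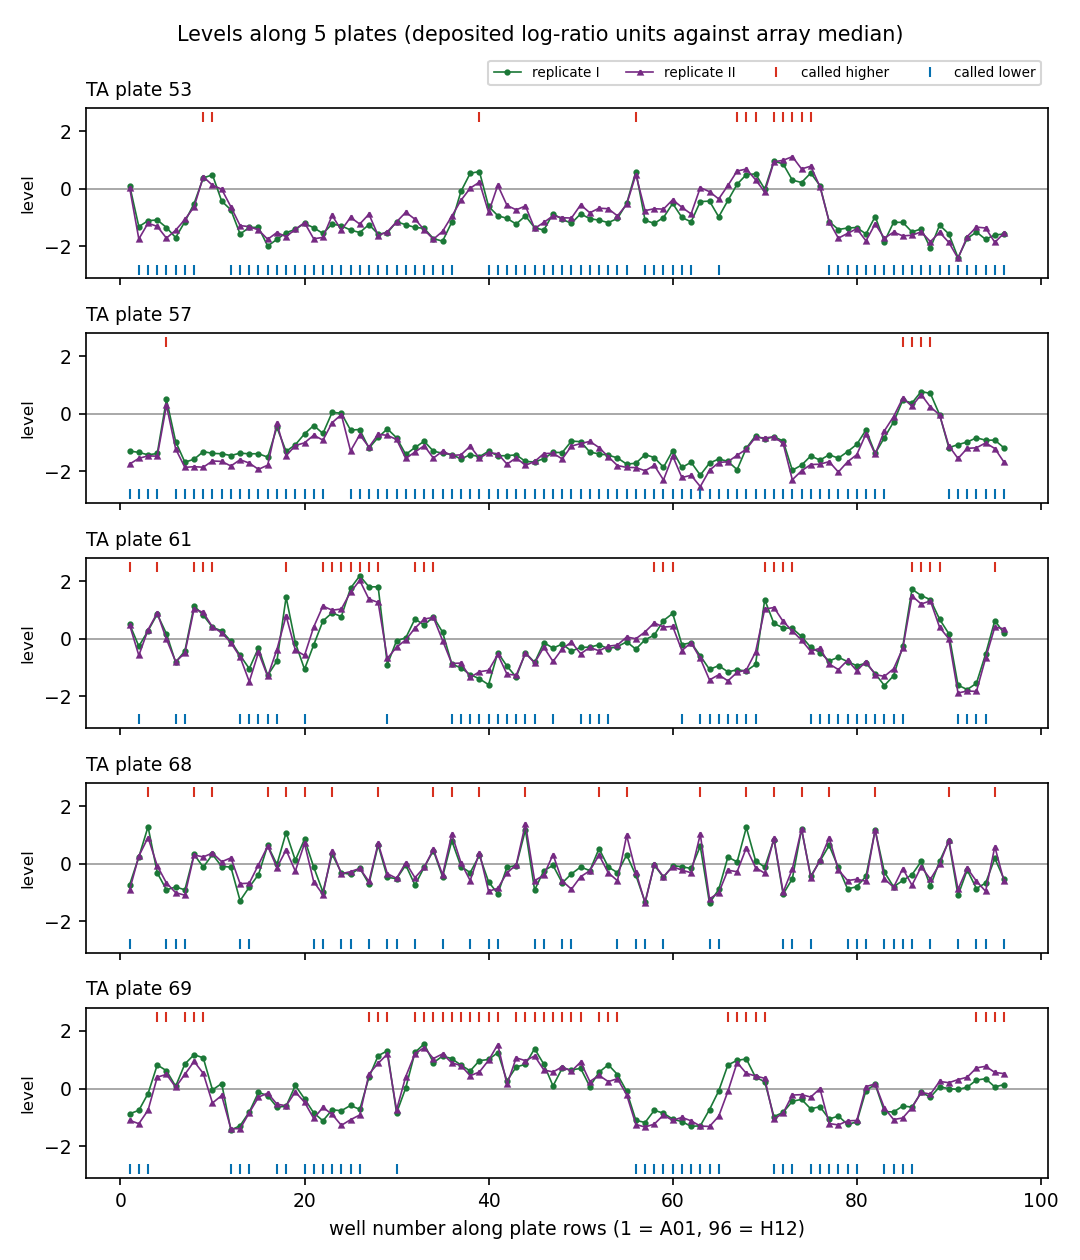
Levels along the 96 wells of TA plates 53, 57, 61, 68 and 69, read along plate rows, for replicate I (circles) and replicate II (triangles) in deposited log-ratio units against the array median. Red ticks mark wells called higher and blue ticks wells called lower. Plates 53 and 57 show narrow islands in long low ground, plate 61 holds the highest probe of the 18 plates, each of the 22 wells called higher on plate 68 stands alone, and plate 69 holds the longest high run, of 10 probes.

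The highest probe was TA61C02, at 2.18 (I) and 2.03 (II), a mean of 2.10 ± 0.11 (SD, n = 2), with a limma adjusted p of 7.3e-26. It was picked as the highest of these same values, so this p is not a test of it. It ranked 10 from the top of the whole array. Its neighbours TA61C01 and TA61C03 were high too, and TA61C01 was the second highest of these plates, at 1.75 (I) and 1.62 (II). The third, TA61H02 in the same plate, was at 1.72 (I) and 1.48 (II), between a well at -0.30 and one at 1.35. The 3 highest probes thus all lay in plate 61, the second plate after plate 59. Only 1 of the 100 highest probes of the array lay in plates 52 to 69.

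The lowest probes lay in plates 52 to 59. TA53H07, the lowest probe of the array, was at -2.39 (I) and -2.41 (II), a mean of -2.40 ± 0.02 (SD, n = 2), with a limma adjusted p of 7.3e-29. This probe too was picked on these same values, so its p is not a test of it. TA54A11 was at -2.53 (I) and -2.17 (II), and TA57F03 at -2.13 (I) and -2.53 (II). They ranked 3 and 4 from the bottom of the array. TA53H07 and TA54A11 were dips of a single probe in low surroundings, between neighbours at -1.71 and -1.69 for TA53H07 and at -1.45 and -1.24 for TA54A11. TA57F03 stood out less, between neighbours at -1.91 and -1.84, in a deep stretch that also held TA57F01 at -2.04. The levels of TA54A11 and TA57F03 had an SD between replicates of 0.25 and 0.28, and that of TA53H07 one of 0.02.

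Of the 5 lowest probes of the array 4 lay in these plates, and of the 100 lowest 15 did, all 15 of them in plates 52 to 59 and 0 in plates 60 to 69. Of the 1000 lowest 78 did, or 7.8%, close to the 7.95% share of these plates in all probes. TA plates 37 to 51 held 0 of the 5 lowest, 28 of the 100 lowest and 400 of the 1000 lowest. For plates 52 to 69 as a whole the excess was thus limited to the few most extreme values, which rest on 2 readings each. Of the 78 in plates 52 to 69, 69 lay in plates 52 to 59, which held 768 of the 21728 probes. The other 9 lay in plates 60 to 69, which held 960. In plates 52 to 59 taken alone the excess therefore extended to the 1000 lowest.

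The longest high run, TA69C08 to TA69D05, held 10 probes with a mean of 1.05 (I) and 1.01 (II). The next ran from TA56F04 to TA56F12, with 9 probes at 0.92 (I) and 0.89 (II), and from TA67B01 to TA67B09, with 9 probes at 1.03 (I) and 0.92 (II). A high run about as long as those of plates 67 and 69 was thus present in plate 56. The longest low run joined plates, from TA54F05 to TA55C06, with 62 probes at a mean of -1.22 ± 0.12 (SD, n = 2).

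Set beside the plates on either side, TA plates 52 to 69 lay between them. Their median was -0.70 ± 0.01, set against -1.63 ± 0.10 over plates 37 to 51 of the series and 0.04 ± 0.02 over plates 70 to 99 (SD, n = 2 each). All 3 stretches had been limited on these values, so no test was made. Probes under -1.5 were about as few in plates 64 to 69, at 2.69% ± 0.61, as in plates 70 to 99, at 2.87% ± 0.47 (SD, n = 2 each). High runs were about as frequent in plates 64 to 69 as in plates 70 to 99, which had 9.93 per plate. Plates 64 to 69 had 8.6 without plate 68, 10.8 with it and 8.83 with it read in steps of 8. Their mean length in plates 64 to 69 was 3.37 probes without plate 68, 2.57 with it and 3.15 in steps of 8. It was thus shorter than in plates 70 to 99, at 3.89. The longest in plates 70 to 99 had 32 probes, but out of 298 runs, against 65 in plates 64 to 69. A maximum grows with the number of runs, so the longest runs are not compared. Plates 64 to 69 had 20.9% ± 1.4 of their probes above 0.5, whereas plates 70 to 99 had 31.6% ± 1.6 (SD, n = 2 each).

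The replicates were close within TA plates 52 to 69. Across the 1728 probes, which are not independent, Pearson's r between replicates was 0.947, and 1614 probes (93.4%) had the same sign in both. The difference between replicates had an SD of 0.28 across these probes, against 0.30 across all probes. Probes called lower were 0.06 lower in replicate II than in replicate I on average, and probes called higher differed by -0.02, so the low end was read slightly deeper in replicate II.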

How the data were processed

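The deposited table held 1 column per array with values treated as log ratios and handled as a score, since neither the log base and direction nor any background correction or normalization is stated in the sources used here. Per the labels, 15 µg of immunoprecipitated and of input DNA were amplified and labelled directly with Cy3 and Cy5. The table had 21800 features, of which 72 were empty. Identical columns of a dye swap were taken as 1 profile, and the profile was centred on its median with no other normalization. The foreseen limma fit (limma 3.58.1, R 4.3.3; intercept only, two-sided, Benjamini-Hochberg at 0.05) was made on 2 profiles and all 21728 probes, and the prior degrees of freedom were 116.9, which 1 residual degree per probe determines poorly. It was tested on simulated data.

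Percentiles, shares and slopes were computed per replicate, and mean and SD over 2 replicates. Wells were ordered by plate, row and column, and an empty well ended a run. Named were the 3 highest and 3 lowest probes with the same sign in both replicates, the longest runs, and the highest and lowest plate. Runs after the longest, other plates and plate 68 were singled out after their values were seen. Members, sets of plates and measures were chosen with earlier results of these data known. Signal over background was not examined, and the number of arrays limits precision. Alternatives covered centring, scaling, thresholds, plates, order of wells and each replicate left out. Python 3.11.15, numpy 2.4.6, pandas 2.3.3, scipy 1.17.1 and matplotlib 3.10.9 were used.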

Additional observations from a re-analysis of the deposited data

How the results depend on the processing

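Of 88 alternatives, 30 of them chosen after seeing the data, 72 kept a result within 1.5 times its count or ratio or within the SD between replicates and 16 moved it. Part of these 72 were fixed in advance. For levels, slopes, percentiles and the split, leaving out either replicate cannot move a value beyond the SD between replicates. Centring on the mode or the mean cannot change a slope. The 72 are therefore not a measure of how robust the results are. No difference or slope changed sign in these alternatives. The difference of level inside high runs, whose separate readings were not among them, was 0.18 read in replicate I and -0.06 read in replicate II. The ratio of mean lengths of high runs, 0.93 with all plates, was above 1 in 6 of 10 alternatives (between 0.877 and 1.34). Another centre moved the median of TA plates 52 to 69 to -1.27 (main mode) and -0.58 (mean), against -0.70. The main mode left 87 probes called higher in place of 327, since another centre shifts all values alike. The share of all probes called higher under that centre is not given here, so nothing about these plates is read from this drop. The slope per plate was 0.0505 with plate means, 0.0669 without plate 52, 0.0557 without plate 69 and, with any 1 plate left out, between 0.0521 (plate 67) and 0.0669 (plate 52), against 0.0587. With the last 9 plates set against the first 9, the 10th, 50th and 90th percentiles differed by 0.40, 0.63 and 0.46, and the part of class shares in the rise was 72.6%; with classes at -1 and 0.5 it was 77.5%, against 71.5%. Runs of lower probes were also defined by a limit of -0.5 in both replicates in place of the limma call. They were then 1.09 times as frequent per plate in plates 64 to 69 as in plates 52 to 57, against 2.0 times. Their mean length was 0.467 times that of plates 52 to 57, against 0.296 times. With this limit in 1 replicate alone, the ratio of frequencies lay between 1.22 and 1.43. That low runs became shorter held in each alternative tried, whereas that they became more frequent was weak under this limit. High runs were more frequent per plate in plates 64 to 69 in all 10 alternatives. Beyond what another centre or choice of plates changes by construction, the cause was not tested. Signal over background was not examined.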
